A study of Mus musculus with 4 samples.

Results

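The genes described here are the subunits of protein kinase A, the cAMP-responsive transcription factors and the cAMP-activated exchange factor Epac1. They were measured in 2 B-cell lymphoma lines and 2 samples of splenocytes selected for B cells, all of the mouse. All non-control probes were taken whose gene name on the array is Prkaca, Prkacb, Prkar1a, Prkar1b, Prkar2a, Prkar2b, Creb1, Crem, Atf1 or Rapgef3, which are 10 of 27745 gene names, with 24 different probes on 33 spots. RNA was measured on 4 single-colour oligonucleotide arrays, all on 1 slide. The control group is B220+ splenocytes from C57BL/6N mice (n = 2), B220 being a surface antigen used to select B cells. The other group is 2 independently established B-cell lymphoma lines (n = 2, each line on 1 array), labelled as derived from dopamine receptor 3 transgenic mice of the same strain. All samples are labelled female, and neither age nor the promoter of the transgene is given in the sources used here. The groups differ at once in malignancy, in growth as a cell line and in genotype, which cannot be told apart.

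Protein kinase A is held inactive as a tetramer of 2 regulatory and 2 catalytic subunits. When cAMP binds the regulatory subunits, the catalytic subunits are released and phosphorylate many proteins, among them CREB1, CREM and ATF1, which bind the cAMP response element (CRE) of target promoters. The regulatory subunits are of type I, largely cytosolic, or type II, largely held at membranes and organelles by A-kinase anchoring proteins. Epac1 is a second cAMP sensor, which activates the small GTPase Rap1 without the kinase. The dopamine receptor DRD3 couples to inhibitory G proteins, which lower cAMP, and in B cells a rise in cAMP is known to restrain proliferation.

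The promoters of the kinase subunits whose probes were clearly higher in the lines, and of Creb1, whose probes were lower, are shown first. The sequences are RefSeq windows of GRCm38.p6 from 250 bases before to 50 bases after an annotated start. Capitals mark the short CRE core (TGACG or CGTCA, so that a full CRE, TGACGTCA, holds both) and GC boxes (GGGCGG or CCGCCC). For genes with several annotated starts 1 window is shown, for Prkar1a the one with the CRE before the start and for Prkaca and Prkar2b the first listed.
Prkaca (chr8:83972728-83973027, plus strand): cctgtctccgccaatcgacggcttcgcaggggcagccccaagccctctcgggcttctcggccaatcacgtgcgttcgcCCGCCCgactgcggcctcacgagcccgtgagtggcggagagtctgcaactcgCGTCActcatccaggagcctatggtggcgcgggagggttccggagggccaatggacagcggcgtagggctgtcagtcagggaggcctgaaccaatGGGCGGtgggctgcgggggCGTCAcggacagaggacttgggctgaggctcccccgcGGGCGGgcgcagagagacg
Prkar1a (chr11:109650699-109650998, plus strand): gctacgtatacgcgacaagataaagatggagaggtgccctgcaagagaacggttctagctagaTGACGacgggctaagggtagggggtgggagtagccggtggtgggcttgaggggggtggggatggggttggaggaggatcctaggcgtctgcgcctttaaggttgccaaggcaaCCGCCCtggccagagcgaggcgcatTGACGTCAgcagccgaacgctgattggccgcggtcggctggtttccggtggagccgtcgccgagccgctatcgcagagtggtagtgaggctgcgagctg
Prkar2a (chr9:108691893-108692192, plus strand): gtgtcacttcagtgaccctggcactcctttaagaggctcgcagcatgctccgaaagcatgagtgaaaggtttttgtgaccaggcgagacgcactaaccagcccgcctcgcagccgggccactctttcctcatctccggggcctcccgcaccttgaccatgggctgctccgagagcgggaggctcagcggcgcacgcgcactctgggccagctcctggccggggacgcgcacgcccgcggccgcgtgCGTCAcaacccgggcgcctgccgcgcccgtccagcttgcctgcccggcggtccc
Prkar2b (chr12:32061228-32061527, minus strand): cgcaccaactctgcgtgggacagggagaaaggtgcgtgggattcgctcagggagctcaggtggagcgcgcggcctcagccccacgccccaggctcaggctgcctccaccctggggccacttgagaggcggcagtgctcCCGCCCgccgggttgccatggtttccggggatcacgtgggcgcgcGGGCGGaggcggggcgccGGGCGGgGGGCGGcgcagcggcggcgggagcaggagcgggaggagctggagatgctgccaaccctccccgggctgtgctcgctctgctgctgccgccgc
Creb1 (chr1:64532554-64532853, plus strand): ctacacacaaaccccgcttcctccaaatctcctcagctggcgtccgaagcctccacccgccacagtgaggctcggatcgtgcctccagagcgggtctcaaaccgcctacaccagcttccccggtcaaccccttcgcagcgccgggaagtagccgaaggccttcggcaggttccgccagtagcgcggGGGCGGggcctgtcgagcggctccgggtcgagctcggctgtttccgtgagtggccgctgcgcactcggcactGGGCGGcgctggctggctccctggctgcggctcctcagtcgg

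Among the 9 genes searched, a full CRE was found in Prkar1a only. It lay in 2 overlapping windows that share 1 site, 49 bases before the start in the window shown. Across all 32851 windows of the same length, 1.79% held a full CRE. A short CRE core was found in 9 of the 22 windows of the genes described (20.8% of all windows) and a GC box in 13 of 22 (35.7% of all windows). Windows of 9 genes were searched, on both strands. Crem had no listed window and was not searched. These matches are letters in a window and were not tested as binding sites.

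Of the 24 probes, 23 were bright enough to be tested, and limma called 14 of them at an adjusted p under 0.05, with 9 higher and 5 lower in the lines. Over the whole array 64.8% of 27404 tested probes were called, so a share of this size is not particular to these genes. Both lines lay above both splenocyte samples at 10 of the 23 probes (42.7% of all tested probes) and below at 9 (42.9%). Among 10 tested probes of kinase subunits 7 were higher and none lower, against 32.3% higher and 32.5% lower over the array. One of the 7, a Prkar2a probe, passed the brightness filter through the lines alone and so had to read higher; without it the count was 6 of 9. Among 12 probes of CREB factors 2 were higher and 5 lower. Crem holds 6 of these 12 and Prkar2a 3 of the 7 higher kinase probes, and probes of 1 gene are not independent. Over the array, 49.9% of called probes were higher in the lines, and 64.0% when arrays were centred on their median, which left 10 of these probes higher and 2 lower. The median log2 difference was 0.11 over the 23 probes and −0.01 over all tested probes. Without splenocyte sample 1 there were 9 calls, 2 of them lower, without sample 2 there were 8, with 6 higher and 2 lower, and without line 1 there were 3 lower. The p-values rest on the spread between these 2 samples a group, which may be technical in whole or in part. In limma the spread of each probe is also drawn towards a value estimated over all tested probes.

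**Figure D1:**
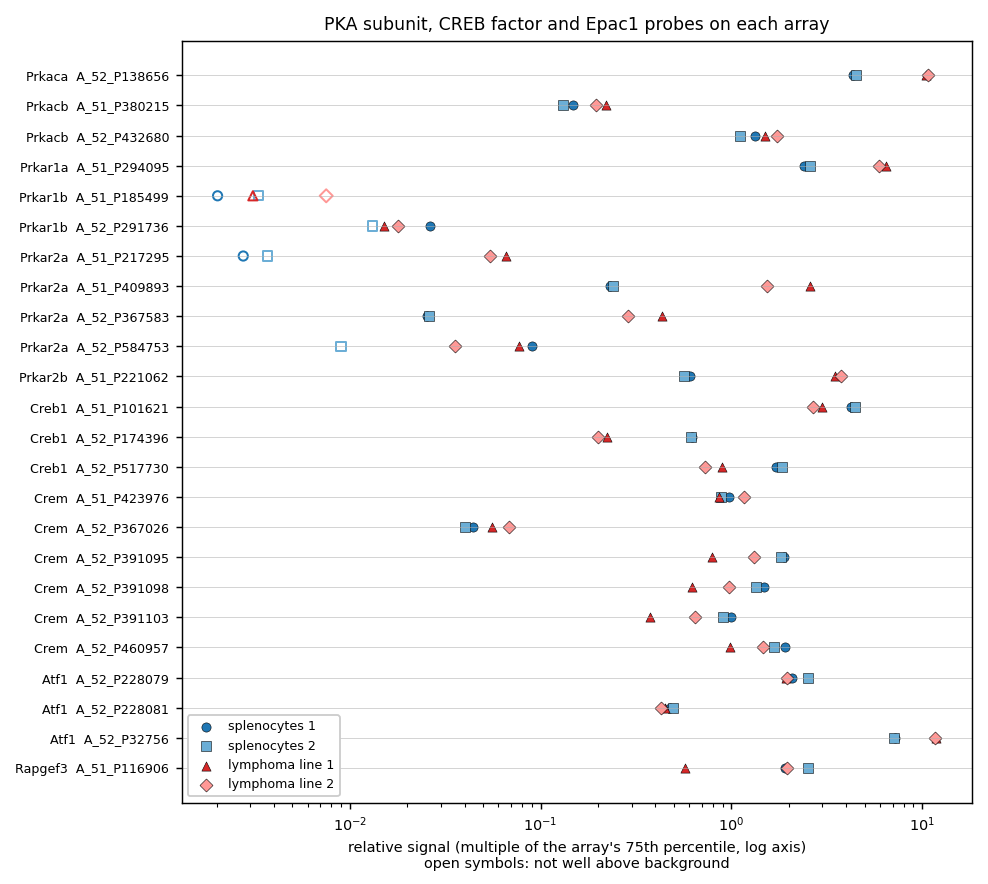
Relative signal of the 24 probes on each array, as a multiple of the array's 75th percentile on a log axis, with open symbols where a spot was not well above background. The Prkar2a and Prkar2b lines sit well to the right of the splenocytes, except for 1 Prkar2a probe, while the Creb1 lines sit to the left.

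Levels are given below as relative signal, the processed signal divided by the 75th percentile of its array, and the level of one probe is not read against that of another. Prkaca encodes the main catalytic subunit, C-alpha. Its probe (mm8, chromosome 8, 86886359 to 86886418) gave a relative signal of 4.34 and 4.49 in splenocyte samples 1 and 2 and of 10.4 and 10.7 in lines 1 and 2. Both lines were above both controls, the groups did not overlap, and the lines were nearly equal. The difference was 2.40-fold (a log2 difference of 1.26 with an SE of 0.14 from 2 arrays in each group; adjusted p = 0.00226 in limma). In bulk samples, fewer cells that express a gene and less RNA per cell cannot be told apart.

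Prkacb encodes the second catalytic subunit, C-beta, and moved less. Its upstream probe (chromosome 3, 146675329 to 146675388) gave 0.148 and 0.132 in the splenocytes and 0.221 and 0.196 in the lines, a rise of 1.49-fold (log2 difference 0.57 ± 0.16, SE; adjusted p = 0.0337). That call was lost without splenocyte sample 1 (0.66, adjusted p = 0.0940), splenocyte sample 2 (0.49, adjusted p = 0.178) or line 1 (0.49, adjusted p = 0.0922), and the adjusted p lay between 0.00930 and 0.265 across the alternatives run. The other probe (chromosome 3, 146667756 to 146667815) read 1.34 and 1.11 against 1.501 and 1.74, a difference of 0.41 ± 0.18 that was not called (adjusted p = 0.109). Both lines were above both controls at each Prkacb probe.

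Prkar1a encodes RI-alpha, the widely expressed type I regulatory subunit. Its probe (chromosome 11, 109485297 to 109485356) gave 2.40 and 2.59 in the splenocytes and 6.50 and 5.94 in lines 1 and 2. The groups did not overlap, and the rise was 2.49-fold (1.32 ± 0.15, SE; adjusted p = 0.00240). This increase was of nearly the same size as that of Prkaca, although the difference between them was not tested. Prkar1b, the type I subunit known mainly from brain, was near background. One of its probes was not well above background on any array and was not tested. The other (chromosome 5, 139271254 to 139271313) read 0.0264 in splenocyte sample 1, 0.0132 in sample 2, where it was not well above background, and 0.0152 and 0.0179 in the lines. These groups overlapped, and the difference of −0.18 ± 0.37 was not called (adjusted p = 0.695).

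The largest increases were in the type II regulatory subunits. Prkar2a, encoding RII-alpha, has 4 probes under its name, of which 3 carry the RefSeq transcript. The last of these in the direction of transcription (chromosome 9, 108605746 to 108605805) gave 0.230 and 0.239 in the splenocytes and 2.58 and 1.54 in lines 1 and 2. The controls agreed closely and both lines were far above them, line 1 more than line 2. This rise was 8.50-fold (3.09 ± 0.29, SE; adjusted p = 0.00142). The next probe upstream (108604868 to 108604927) gave 0.0254 and 0.0261 against 0.431 and 0.288, which is 13.7-fold (3.77 ± 0.24; adjusted p = 0.000615). It fell to 1.94 on the log2 scale with normexp background correction, which adds an offset to every signal, and stayed called. The third probe spans 1297 bases of genome and so crosses an intron. It was not well above background in the splenocytes (0.00276 and 0.00369) and read 0.0656 and 0.0539 in the lines. By an approximate bound this is at least 6.39-fold higher. The bound sets the lines' mean against the lowest signal well above background on each splenocyte array. That floor is not a strict limit. The tested Prkar1b probe was dim in splenocyte sample 2 at −6.25 on the log2 scale, over the floor of −6.32. The adjusted p of 0.000398 of the third Prkar2a probe rests on splenocyte signals below background, so that only the bound can be read. Its call was lost with normexp (0.45, adjusted p = 0.243).

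The remaining Prkar2a probe was designed to an embryonic cDNA clone and lies upstream of the others (chromosome 9, 108550503 to 108550562). It did not follow the other probes. Its relative signal was 0.0902 in splenocyte sample 1, 0.00899 in sample 2, where it was not well above background, and 0.0768 and 0.0356 in lines 1 and 2. The splenocyte samples differed by more from each other than from the lines, and the difference of 0.88 ± 1.19 was not called (adjusted p = 0.547). Without splenocyte sample 1 it was 2.54 (adjusted p = 0.0246) and without sample 2 it was −0.79.

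Prkar2b encodes RII-beta, the type II subunit found in fewer tissues than RII-alpha. Its 1 probe (chromosome 12, 32543773 to 32543832) gave 0.606 and 0.565 in the splenocytes and 3.50 and 3.73 in the lines. The lines were close to each other and well apart from the controls. The rise was 6.18-fold (2.63 ± 0.15, SE; adjusted p = 0.000468). The calls of Prkaca, Prkar1a and Prkar2b, and those of the first and second Prkar2a probes described, held under every alternative in which they were tested.

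**Figure D2:**
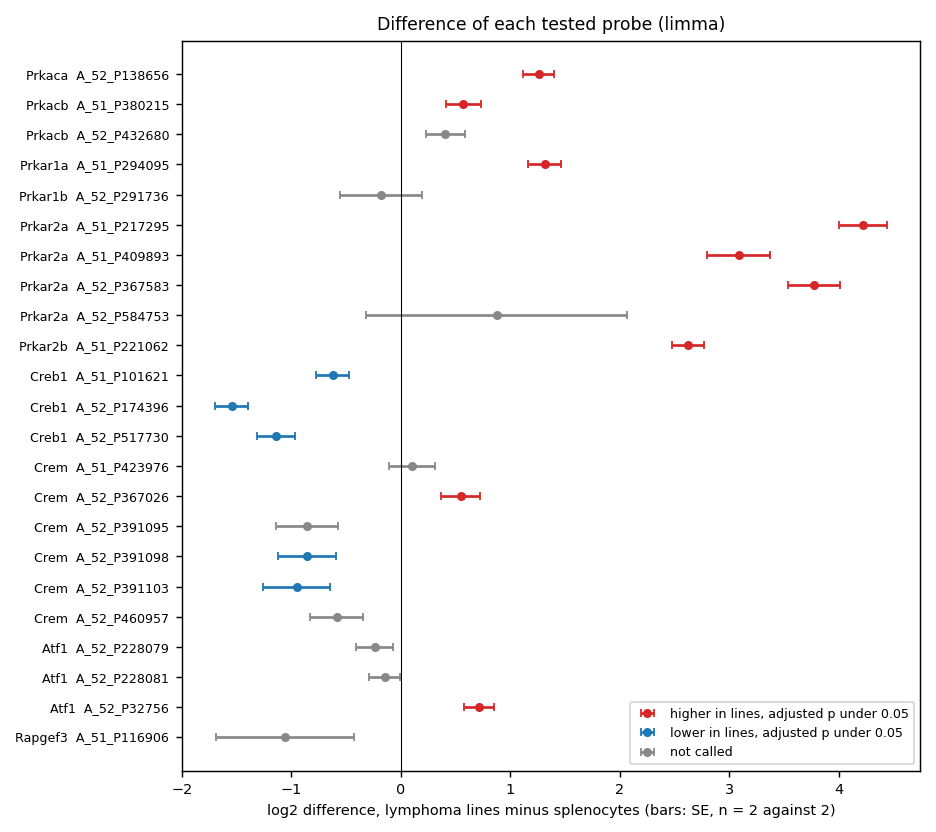
Log2 difference of each of the 23 tested probes, lines minus splenocytes, with SE bars (n = 2 against 2) and colour by call. Kinase subunits are at or above 0 except Prkar1b, and the 3 Creb1 probes are below 0. The 3 RefSeq probes of Prkar2a and the Prkar2b probe are drawn highest, and the embryonic-clone probe of Prkar2a lies below Prkaca and Prkar1a. The largest difference drawn is that of the Prkar2a probe not well above background in the splenocytes. Its fitted value can be read only as a bound.

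Creb1, the founding CREB factor, was lower in both lines at each of its 3 probes. The most 5′ probe (chromosome 1, 64531588 to 64531647) gave a relative signal of 0.620 and 0.617 in the splenocytes and 0.224 and 0.201 in the lines, a fall of 2.92-fold (log2 difference −1.55 ± 0.15, SE; adjusted p = 0.00155). The middle probe (64532335 to 64532394), assigned to transcript variant A, gave 1.71 and 1.83 against 0.893 and 0.727 and fell 2.20-fold (−1.14 ± 0.17; adjusted p = 0.00546). These groups did not overlap, and both calls held under each of the 14 alternatives in which these probes were tested.

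The most 3′ Creb1 probe (64535931 to 64535990) is printed on 10 spots, which gives the spread within an array. Its mean relative signal was 4.26 and 4.45 in the splenocytes and 3.00 and 2.67 in the lines. Across the 10 spots the SD was 0.0389 to 0.0655 on the log2 scale, and the lowest splenocyte spot (3.997) exceeded the highest line spot (3.20). The fall was 1.54-fold (−0.62 ± 0.15, SE; adjusted p = 0.0223). It was not called without splenocyte sample 1 (−0.65, adjusted p = 0.0961), splenocyte sample 2 (−0.59, adjusted p = 0.123) or line 2 (−0.54, adjusted p = 0.0570), nor with arrays centred on their median (−0.21, adjusted p = 0.382) or with no filter on dim probes (adjusted p = 0.0676). Across the alternatives run, its adjusted p lay between 0.00500 and 0.382.

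Crem encodes activators and repressors of CRE promoters, including the inducible repressor ICER, from 1 gene. Its 6 probes went both ways. Of 5 probes on 1 RefSeq transcript, which lie close together on chromosome 18, the 4 more 5′ ones read lower in both lines than in both splenocyte samples. The most 5′ (3267987 to 3268046) gave 0.994 and 0.908 against 0.374 and 0.647 in lines 1 and 2, a fall of 1.93-fold (−0.95 ± 0.30, SE; adjusted p = 0.0476). Its neighbour (3267937 to 3267996) gave 1.47 and 1.35 against 0.619 and 0.977 and fell 1.81-fold (−0.86 ± 0.27; adjusted p = 0.0439). In each, line 1 was the lower line. The next 2 had differences of −0.86 (adjusted p = 0.0516) and −0.58 (adjusted p = 0.0952) and were not called. The 2 calls were lost without splenocyte sample 1 (adjusted p = 0.150 and 0.149), sample 2 (0.116 and 0.112) or line 1 (0.0627 and 0.0698), when centred on the median (0.125 and 0.147) and with no filter on dim probes (0.0959 and 0.0923).

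The most 3′ Crem probe (3267049 to 3267108) gave 0.976 and 0.885 in the splenocytes, 0.858 in line 1 and 1.17 in line 2, so that the lines lay on either side of the controls. Its difference was 0.11 ± 0.21 (adjusted p = 0.680), and its sign turned without line 2 (−0.12) and with a percentile over bright probes (−0.02). A probe to a testis cDNA clone, which spans 3805 bases and so crosses an intron, was low on all arrays (0.0443 and 0.0403 against 0.0557 and 0.0684). Its rise of 1.46-fold only just passed (0.55 ± 0.18; adjusted p = 0.0495). The call was lost without splenocyte sample 1 (adjusted p = 0.129), sample 2 (0.211) or line 2 (0.121), and the value was −0.14 with normexp.

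Atf1 encodes a close relative of CREB1 and shares its kinase-inducible domain. Its most 3′ probe (chromosome 15, 100088856 to 100088915) gave 7.22 and 7.09 in the splenocytes and 11.9 and 11.6 in the lines. The replicates of each group were close and the groups well apart. The rise was 1.64-fold (0.72 ± 0.14, SE; adjusted p = 0.0112). It was not called without splenocyte sample 1 (0.73, adjusted p = 0.0673) or sample 2 (0.70, adjusted p = 0.0757). The other 2 probes, the farther of them 943 bases upstream, read slightly lower in the lines and were not called (−0.15 ± 0.14, adjusted p = 0.408, and −0.24 ± 0.17, adjusted p = 0.274). They became 0.26 and 0.17 when arrays were centred on the median.

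In each of the 3 CREB factor genes the most 3′ probe thus had the highest difference among probes of its RefSeq transcript. The 3′ probe minus the 5′ probe of Creb1, as log2 signal within an array, depends on how each probe hybridises and is given only to compare it between arrays. It was 2.78 and 2.85 in the splenocytes and 3.75 and 3.73 in the lines. For Crem it was −0.03 and −0.04 against 1.20 and 0.85, and for Atf1 3.92 and 3.85 against 4.72 and 4.77. The lines were above the controls in all 3 genes, by 0.92, 1.06 and 0.86. For Prkar2a it was 3.18 and 3.20 against 2.58 and 2.42, lower in the lines by −0.69. For Prkacb it was 3.17 and 3.07 against 2.77 and 3.15, so that line 2 lay between the controls and the groups overlapped. Over 3736 transcripts with at least 2 bright probes the median of this quantity was −0.10, it was above 0 in 41.4%, and it was at or above the Creb1 value in 11.7%. Which transcript ends or isoforms these probes read was not tested.

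**Figure D3:**
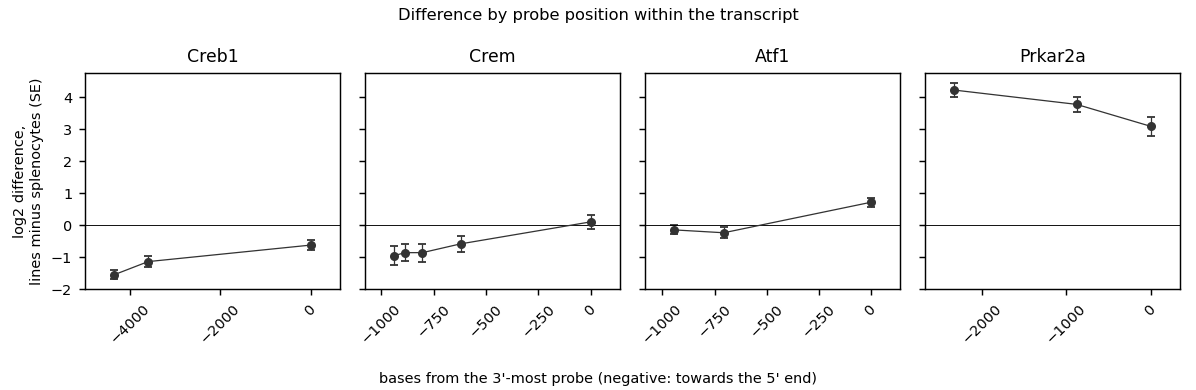
Log2 difference, lines minus splenocytes, with SE bars (n = 2 against 2), against the distance in genomic bases from the most 3′ probe of the same gene. Among the RefSeq probes drawn the last is the highest in Creb1, Crem and Atf1. In Prkar2a the last is the lowest as drawn, but 1 probe there was not well above background in the splenocytes. That probe is drawn at its fitted value and can be read only as a bound (2.68 on the log2 scale), so its rank is not known. The testis-clone probe of Crem and the embryonic-clone probe of Prkar2a are not drawn.

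Rapgef3, which encodes Epac1, separated the 2 lines from each other. Its probe (chromosome 15, 97573027 to 97573086) gave a relative signal of 1.92 and 2.53 in the splenocytes, 0.570 in line 1 and 1.96 in line 2. Line 1 was below every other array, while line 2 lay within the range of the controls. The mean difference of −1.06 ± 0.63 was not called (adjusted p = 0.202). Without line 2 it was −1.95 and called (adjusted p = 0.00885), and without line 1 it was −0.17. Line 2 exceeded line 1 by 3.45-fold, a difference with no replicate check since each line has 1 array. Among probes well above background in both lines, 4.13% of 25083 differed by at least 2-fold between the lines. Of the probes described here, Rapgef3 and the embryonic-clone probe of Prkar2a did so (2.16-fold higher in line 1 for the latter). The 5 Crem probes on the RefSeq transcript were 1.36-fold to 1.73-fold higher in line 2.

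**Figure D4:**
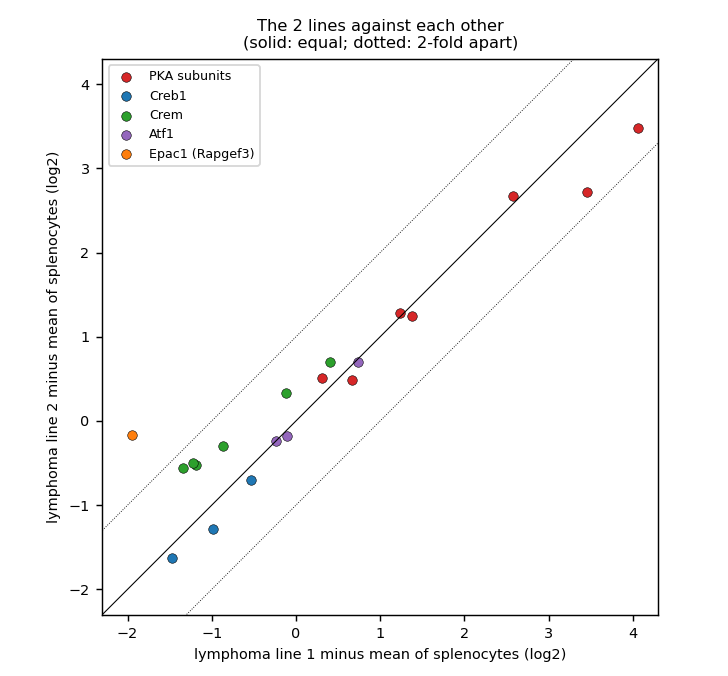
Each probe well above background on all arrays, as the log2 difference of line 1 (x axis) and of line 2 (y axis) from the mean of the splenocytes. Rapgef3 alone of the 20 probes lies outside the dotted lines, which mark a 2-fold difference between the lines, and the Crem probes lie above the diagonal.

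The other genes of the pathway were counted from lists of textbook members, each gene by its brightest tested probe. Over all gene names 63.4% of 18316 were called, 30.7% higher and 32.7% lower, with a median log2 difference of −0.05. The protein kinase inhibitor peptides bind free catalytic subunits. Of 3 entries 2 were tested. Pkib gave a relative signal of 5.30 and 4.39 in the splenocytes and was not well above background in either line, a fall of at least 682-fold (adjusted p = 0.000137), and each of its 3 probes fell. Pkib passed the brightness filter through the splenocytes alone and so had to read lower. Here and for Rapgef4 below, the p rests on line signals below background. The size, as for Adcy3 below, is known only as an approximate bound, made from the lines' arrays in the same way as for Prkar2a. Pkig differed by 0.31 ± 0.16 (adjusted p = 0.158). Of 15 A-kinase anchoring proteins 11 were tested, of which 2 rose and 7 fell (median −1.05). Akap6, among those that rose, passed the brightness filter through the lines alone and so had to read higher. Akap1, which holds type II kinase at mitochondria, rose 17.1-fold, from 0.0677 and 0.0487 to 1.06 and 0.908 (adjusted p = 0.000449). Akap12, also called gravin, fell 6.32-fold (adjusted p = 0.000832) and Akap10 2.57-fold (adjusted p = 0.00234). Akap2, singled out after its values were seen, read 7.77 and 8.59 in the splenocytes and 0.00602 and 0.0123 in the lines, where it was well above background in 1 of 2.

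Coactivators of CREB and the salt-inducible kinases that restrain them had 1 of 7 tested genes higher and 2 lower (median −0.23). Sik1, itself induced by CREB, fell 2.77-fold (adjusted p = 0.00166), the histone acetyltransferase Ep300 fell 1.64-fold (adjusted p = 0.0197) and Sik3 rose 1.47-fold (adjusted p = 0.0276). Crebbp, the CREB-binding acetyltransferase, differed by −0.23 ± 0.14 (adjusted p = 0.228). Among 8 genes of the Epac2 and Rap list 3 rose and 2 fell (median 0.08). Rap1gap2, a Rap1 GTPase activator, rose 2.46-fold (adjusted p = 0.00426). Rap2a rose 2.12-fold (adjusted p = 0.00714), while its other probe fell, and Rap1b, a target of Epac, fell 2.28-fold (adjusted p = 0.00387). Rapgef4, which encodes Epac2 and was singled out after its values were seen, read 0.694 and 0.798 in the splenocytes and was not well above background in the lines, a fall of at least 105-fold (adjusted p = 9.44e-05). It passed the brightness filter through the splenocytes alone, so this fall, counted among those of its list, was fixed by the filter.

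Of 14 tested genes of cAMP synthesis and breakdown 3 rose and 9 fell (median −1.35). The adenylyl cyclases Adcy6 and Adcy9 rose 8.80-fold (adjusted p = 0.000443) and 2.22-fold (adjusted p = 0.0111), and the phosphodiesterases Pde2a and Pde4b fell 28.9-fold (adjusted p = 0.000234) and 8.14-fold (adjusted p = 0.000834). The cyclases moved both ways. Of the phosphodiesterases, Pde3b, Pde4a, Pde4d, Pde7a and Pde8b were also lower, Pde1b was not called and only Pde8a was higher. Adcy3, Pde4d and Pde8b were not well above background in either line. They passed the brightness filter through the splenocytes alone and so had to read lower, though they are counted among the falls. Among genes singled out after their values were seen, the cyclase Adcy7 fell 4.28-fold, from 29.2 and 32.6 to 6.44 and 8.05 (adjusted p = 0.00125), the cyclase Adcy3 fell at least 14.6-fold, and the phosphodiesterase Pde8a rose 1.52-fold (adjusted p = 0.0222). Each of 13 tested genes of the CREB target list fell (median −3.37). Sik1, Pde4b and Pde4d are in this list and also in a list above, so their falls are counted in both. Here too the fall of Pde4d was fixed by the filter. Fos, an immediate-early transcription factor, fell from 30.7 and 27.6 to 0.0170 and 0.0222, which is 1499-fold (adjusted p = 9.44e-05). Its signals in lines 1 and 2 (−5.88 and −5.49 on the log2 scale) were well above background but near the lowest such signals (−7.36 and −6.92). How far the size of its fall depends on background correction is not given here. Dusp1, a MAP kinase phosphatase, fell 82.1-fold (adjusted p = 0.000127). These targets also respond to other signals. The list was made with earlier results of these arrays known, the fall of Fos among them, so its count is not independent evidence of its direction.

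**Figure D5:**
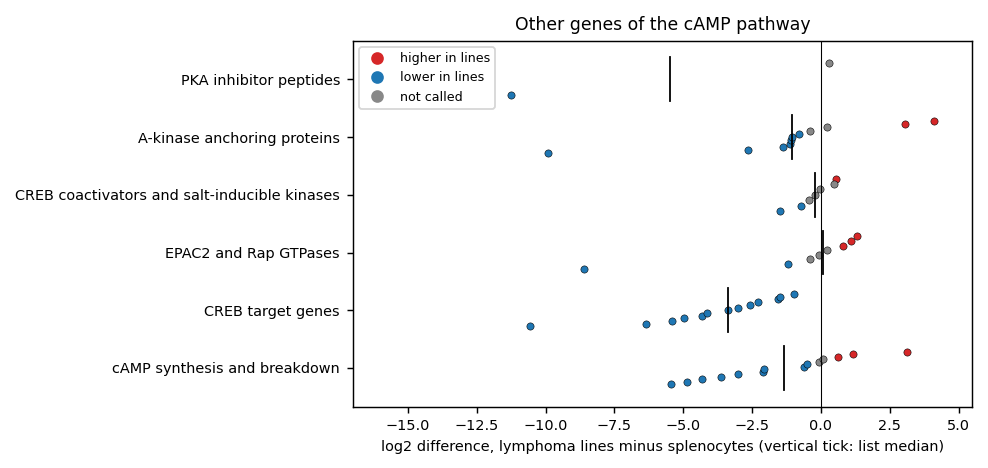
Log2 difference, lines minus splenocytes, of each tested gene of the 6 pathway lists, coloured by call, with a vertical tick at the list median. Each tested CREB target gene is below 0, and the other lists hold genes on both sides of 0 or, for the inhibitor peptides, 1 on each side. Genes not well above background in either array of a group, such as Pkib, are drawn at fitted values that can be read only as bounds.

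By pattern over the 4 arrays, the genes nearest to the Prkar2a probe with the largest rise among probes bright on all arrays were Prmt1, Myb and Gdf1, with a root mean square distance of 0.0404, 0.0454 and 0.107 log2 units after centring. Those nearest to the Creb1 probe with the largest fall among such probes were an unnamed transcript (NAP026914-1), Phyh and Cpne5, at 0.0126, 0.0132 and 0.0188. These were the closest of 15227 gene names bright on all arrays, and 4 arrays give such a likeness little weight.

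The array-wide facts bear on all of these values. Between 24974 and 27319 probes per array were well above background, no spot was saturated, and the 75th percentile of the processed signal ran from 514 to 1315, lowest in splenocyte sample 2. Pearson's r over the tested probes, which are not independent replicates, was 0.992 for the pair of splenocyte samples and 0.990 for the pair of lines, and it ran from 0.823 to 0.838 for pairs from different groups. Each of 9 B-cell markers was well above background on all arrays, 6 were lower in the lines, and their summed relative signal was 559 to 703 in the splenocytes and 296 to 305 in the lines. The 9 tested myeloid markers summed to 10.6 to 16.1 in the splenocytes and 35.4 to 35.8 in the lines. Nearly all of the sum in the lines was Adgre1, which rose 18.7-fold, from 2.13 and 1.69 to 35.3 and 35.7. Of the 9 markers 7 were lower in the lines, and Lyz1, Lyz2 and S100a8 were not well above background in either line. The 9 T-cell markers summed to 14.1 to 15.97 against 8.87 to 10.6, with 5 lower and Cd3g and Cd8b1 higher, and Thy1 and Cd8a not well above background in the lines. The other tested probe of Cd8b1 was lower. Of 5 NK markers 4 were lower and 1 higher (0.821 to 0.903 against 0.434 to 0.571), of 5 dendritic markers 1 was lower and 3 higher (1.27 against 0.949 to 0.998), and of 4 erythroid markers 3 were lower (5.65 to 5.73 against 0.902 to 2.36). The part of other cell types in the values of the kinase and CREB genes was not tested.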

How the data were processed

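Cy3-labelled cRNA of 4 samples was hybridised to mouse arrays, and images were extracted by the authors with Agilent Feature Extraction (9.5.1.1 per the file headers, 9.5 per the submitters' processing notes), with probe positions on mm8. The deposited processed signal is an intensity corrected for background and spatial trend within an array, with no normalization between arrays; a deposited series-wide table gives intensities with 1 shared 75th percentile, a scaling read from its values and not stated in the sources used here. Per the file headers, the other columns used are raw spot and background intensities and flags of 0 or 1.

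Spots flagged as outliers on any array were left out (none of the 33 spots of these genes was) and spots of a probe averaged. The log2 signal minus the log2 75th percentile of its array was fitted with limma 3.58.1 in R 4.3.3 (lmFit, eBayes, two-sided, Benjamini-Hochberg over all 27404 probes well above background on at least 2 arrays; called at an adjusted p under 0.05). A probe counted as well above background on an array if at least 50% of its spots did. Gene names of the pathway lists were updated through RefSeq accessions (24297 probes matched), and a name stands for its tested probe with the highest mean. Named are every probe of the 10 genes and, per list and direction, the 2 called genes with the largest change among those bright on all arrays, or with the largest bound where none is. Other genes of the pathway lists, such as Pkig and Crebbp, which were not called, are named outside this rule. The fit was tested on simulated data. Samples were grouped by title. With each line on 1 array, lines were compared by size alone. All arrays share 1 slide and scan, so no slide block could be fitted. The members and lists were chosen with earlier results of these data known.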

Additional observations from a re-analysis of the deposited data

Results flagged for a closer look

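The most 3′ Crem probe read below both splenocyte samples in line 1 and above both in line 2, with line 1 lower than line 2 by −0.44 on the log2 scale (line 1 minus line 2). The difference between the lines was not tested, since each line has 1 array.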

How the results depend on the processing

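Of the 14 calls, 7 held under every one of the 15 alternatives in which the probe was tested and 7 were lost under at least one; 5 probes not called became so under at least one. The calls were 9 higher and 5 lower. They were 6 higher with normexp, 2 lower with median centring, 9 in all and 2 lower with no filter on dim probes, and 6 in all (5 higher, 1 lower) with one probe per gene name, where 11583 rather than 17755 of all probes were called because fewer were tested. Leaving out an array in turn gave 8 to 15 calls in all, 6 to 8 higher and 2 to 7 lower. Median centring moved the median of all tested probes from −0.01 to 0.40, and 64.0% rather than 49.9% of called probes were then higher; quantile normalization moved that median to 0.14, normexp to −0.29, the percentile over bright probes to −0.14 and no filter to −0.38. The cause of these shifts was not tested.

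Signs turned only at probes that were dim or had small differences. With normexp the Crem testis-clone probe was −0.14 and the Prkar2a embryonic-clone probe −0.31, which ran from −0.79 to 2.54 as arrays were left out in turn. The Prkar1b probe became 0.33 with quantile normalization, 0.23 with median centring, and from −0.68 to 0.32 as arrays were left out. The Atf1 upstream probes became 0.26 and 0.17 with median centring, and the most 3′ Crem probe −0.022 with the percentile over bright probes and −0.12 without line 2.

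The replicate numbers gave no sign of pairing the samples (correlation of deviations of same-numbered arrays 0.0113). With the replicate number as a block, 3 probes were called lower, and the Prkacb upstream probe (adjusted p = 0.0516), 2 Crem probes (0.0567 and 0.0576) and the Crem testis-clone probe (0.0876) were not called. The slide as a block was not run, since all arrays share 1 slide. With 2 arrays a group, their number limits the precision, and for dim probes the signal over background does.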

Other observations

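A further probe, named by a cDNA clone that the array describes as RII-alpha (mm8, chromosome 9, 108597609 to 108597668), was noticed after the data were seen. It was well above background in line 1 only, with a relative signal of 0.00215 and 0.00392 in the splenocytes and 0.0108 and 0.00538 in the lines, and was not tested.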
